A study of Homo sapiens with 6 samples.

Results

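The solute carriers (SLC) are the largest group of membrane transporters in human cells. Their transcripts were followed on Illumina bead arrays in HuCCT1, an established cell line from a human tumour of the bile duct (cholangiocarcinoma). Members were all probes whose gene symbol is SLC followed by a digit, without SLC7A11, that had a detection p-value under 0.05 on at least 3 of the 6 arrays. This gave 281 of the 15830 detected probes, which stood for 224 of the 11586 genes tested. The array carried 534 SLC probes for 377 genes of 57 families, so 153 genes had no probe that passed, and 124 of these were detected on no array. The mock group was a stable derivative of the line carrying an empty vector. The other group was a stable derivative labelled as overexpressing WTAP, which holds the enzyme of mRNA adenosine methylation (m6A) in nuclear speckles. Each group had 3 arrays, numbered 4, 5 and 6 in both, and the parental line, the culture medium and the RNA kit were the same. The labels do not name the promoter or vector, whether a derivative was 1 clone, or separate cultures. The p-values therefore measure only the spread between these arrays, and that spread can be technical. Precision is limited by how few arrays there were. In whole-culture RNA, fewer cells expressing a gene and less RNA per cell cannot be told apart.

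Solute carriers move nutrients, ions, vitamins, metals and metabolites across membranes, either down a gradient or coupled to sodium, protons or a second substrate. Families are numbered by sequence, and a family usually handles related substrates. In bile duct epithelium, chloride, bicarbonate and bile salt carriers shape the bile, while in tumour cells carriers for glucose, glutamine and other amino acids supply growth. Families 25 and 35 act inside the cell, in the mitochondrial membrane and in the Golgi and endoplasmic reticulum.

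The arrays were alike in quality, with a median signal of 191 to 203 and 15071 to 16307 detected probes each. Levels are given as log2 values after background correction and quantile normalization, and fold changes are the arrays labelled WTAP against the mock arrays. The WTAP transcript itself read 9.77, 9.90 and 9.85 on mock arrays 4, 5 and 6 and 9.96, 9.90 and 9.85 on those labelled WTAP. Its log2 fold change was 0.06 ± 0.10 (SE, limma adjusted p = 0.703), so the arrays showed no WTAP rise and every direction below rests on the labels. All 8 biliary epithelial markers analysed, among them KRT7, KRT19 and EPCAM, were detected on all arrays, and 0 passed the test. Of 17 hepatocyte, fibroblast and leukocyte markers, 7 were detected on at least 3 arrays (ALB, SERPINA1, COL1A2, LUM, CD14, CD68 and LYZ) and 0 passed. The summed level of the biliary list ranged from 99.1 to 100.0 over the mock arrays and from 99.2 to 99.8 over the others. The hepatocyte sum was 20.1 to 20.4 in mock and 19.6 to 20.0 in the others, which did not overlap, and its part in the results was not tested. The fibroblast sum was 11.8 to 13.1 and 12.6 to 14.4, and the leukocyte sum 24.6 to 25.1 and 23.8 to 24.7. None of 4 endothelial markers was detected on 3 arrays.

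Of the 224 SLC genes, 30 were higher and 27 lower in the arrays labelled WTAP, 57 in all or 25.4%, where 20.4% of all genes tested passed (limma, adjusted p under 0.05). The share of genes that were higher was 13.4%, against 10.5% of all genes, and the share lower was 12.1%, against 9.91%. The groups did not overlap for 93 SLC genes, 41.5%, against 39.7% of all genes. At least 2-fold changes by the fitted value were found for 10 SLC genes (7 higher, 3 lower), or 4.46%, against 4.03% of all genes. The 3 lower include SLC13A3, which was detected on no array labelled WTAP, so that its fold is only a bound of at least 1.53. The median log2 fold change was -0.04 for SLC genes and 0.0030 for all genes. The median size of the change, whatever its sign, was 0.26 and 0.22. These shares lay near the background, and no test set the list against other genes. Of the 57 calls, 51 were of genes detected on all 6 arrays, and these numbered 183, so 27.9% passed. The 20.4% of all genes is not the background for that share. In a fit of only the genes detected on all arrays, 2410 of 10126 genes passed, 58 of them SLC genes. The count depended on single arrays: it was 40 without mock array 4, 33 without mock 5, 38 without mock 6, and 36, 35 and 57 without the arrays labelled WTAP 4, 5 and 6. Over all genes these fits called 1345 to 2245, against 2366 with all arrays.

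**Figure D1:**
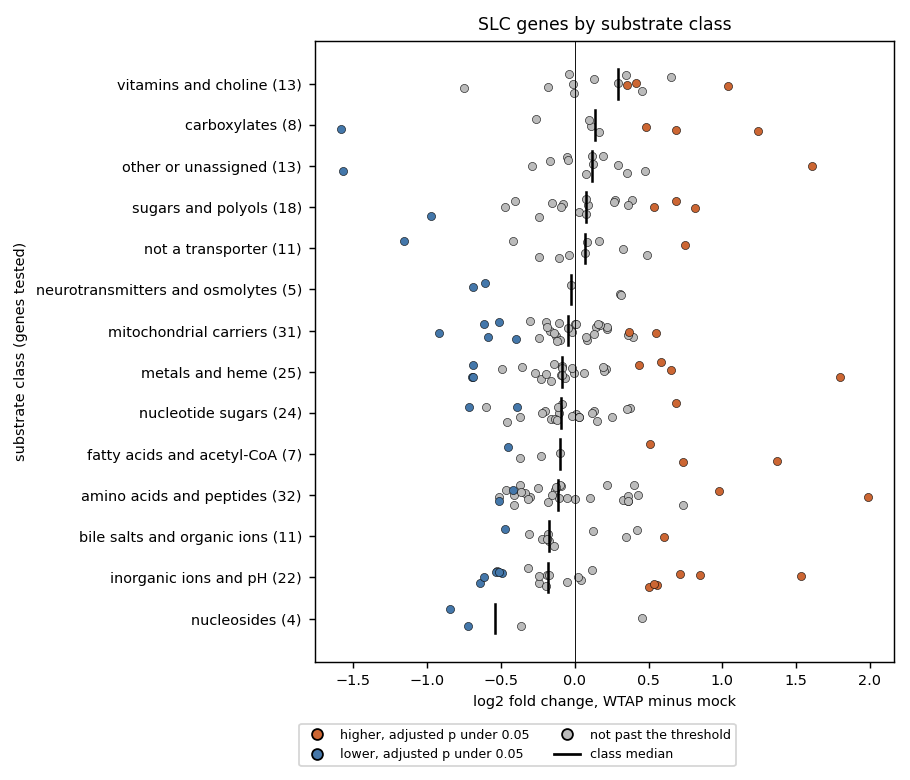
The log2 fold change (horizontal axis, arrays labelled WTAP minus mock) of each of the 224 SLC genes, as 1 point a gene, in rows by substrate class with the number of genes tested in brackets. Orange and blue points passed an adjusted p of 0.05, grey points did not, and black bars are class medians, which ran from -0.54 for nucleosides to 0.29 for vitamins and choline.

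Detection on 3 arrays was the edge of membership. At that edge stood 15 genes, and another 6 genes had a best probe detected on 2 arrays. Of the 15, SLC13A3, SLC34A1 and SLC35D1 were detected on all 3 mock arrays and on none labelled WTAP, so they entered through the group in which they were high and had to differ. Their counts among the falls and their adjusted p-values carry no weight for that reason, and without them 54 of 221 genes had changed, or 24.4%, with 24 lower. The other 12 were split between the groups and did not pass the test, with log2 fold changes from -0.36 to 0.49.

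Promoter windows are shown for genes that carry the changes described below: SLC1A3 and SLC39A11, which rose most, SLC14A1, with the largest fall among genes detected in both groups, and SLC29A1, a nucleoside carrier that fell. Each is the 250 bases before the first start listed in RefSeq (GRCh38.p14). Capitals mark the E-box, CACGTG.
SLC1A3, chr5:36596338-36596587, plus strand: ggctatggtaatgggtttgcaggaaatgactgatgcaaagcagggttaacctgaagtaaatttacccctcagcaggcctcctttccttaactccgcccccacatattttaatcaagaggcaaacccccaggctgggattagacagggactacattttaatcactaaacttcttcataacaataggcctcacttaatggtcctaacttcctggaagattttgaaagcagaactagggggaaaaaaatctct
SLC39A11, chr17:73092689-73092938, minus strand: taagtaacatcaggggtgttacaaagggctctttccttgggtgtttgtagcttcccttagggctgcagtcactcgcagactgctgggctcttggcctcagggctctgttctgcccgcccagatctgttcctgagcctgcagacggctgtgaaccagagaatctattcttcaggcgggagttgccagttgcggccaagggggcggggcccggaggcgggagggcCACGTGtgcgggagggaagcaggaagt
SLC14A1, chr18:45723931-45724180, plus strand: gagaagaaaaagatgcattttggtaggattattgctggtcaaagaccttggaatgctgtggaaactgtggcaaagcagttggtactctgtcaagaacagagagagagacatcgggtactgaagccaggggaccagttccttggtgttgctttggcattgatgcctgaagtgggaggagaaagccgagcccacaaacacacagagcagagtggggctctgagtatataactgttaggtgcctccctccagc
SLC29A1, chr6:44219365-44219614, plus strand: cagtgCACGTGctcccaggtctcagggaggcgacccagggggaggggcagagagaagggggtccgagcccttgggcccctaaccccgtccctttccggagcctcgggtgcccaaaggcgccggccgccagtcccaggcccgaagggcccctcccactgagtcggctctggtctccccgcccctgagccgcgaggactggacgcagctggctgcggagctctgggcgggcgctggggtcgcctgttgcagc
The E-box lay 27 to 22 bases before the start of SLC39A11 and 245 to 240 before that of SLC29A1. The motifs searched on both strands were the E-box CACGTG, the hypoxia response core ACGTG, which every E-box of this form contains, the ATF4 element TGATGNAAT, the antioxidant response element TGACNNNGC, and the metal response elements TGCACNC and TGCGCNC. SLC1A3 had 3 windows and SLC14A1 and SLC29A1 had 2 each, of which only the first is shown. Of the windows not shown, those of SLC1A3 held an antioxidant element and a hypoxia core. That of SLC14A1 held a hypoxia core, and that of SLC29A1 held the metal element TGCGCNC. Promoter windows were found for 189 of the 224 SLC genes, 268 windows in all, and several windows of a gene can overlap. The E-box stood in 7 of 35 windows of SLC genes that fell, or 20.0%, in 2 of 30 windows of those that rose, or 6.67%, in 10.8% of all SLC windows and in 6.34% of the 35116 windows of all genes. The 35 windows belong to 22 genes and the 30 to 26, so windows are not independent units. The difference between genes that fell and genes that rose was not tested. The metal response motif TGCGCNC stood in 6 of 35 windows of metal carriers, 17.1%, against 16.8% of all windows, and TGCACNC stood in 3, or 8.57%, against 9.87%. For the ATF4 element, the antioxidant element and the hypoxia core the shares were 0.373%, 13.4% and 23.1% of SLC windows and 0.888%, 10.9% and 18.5% of all windows. A match is a run of letters, not a shown binding site. SLC13A3 and SLC29A2 had no entry.

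The largest rise of any SLC gene lay among the amino acid carriers. Of 32 tested, 2 rose and 2 fell, 12.5% against the 20.4% of all genes, a difference that was not tested. The median of the class was -0.12. SLC1A3, the glutamate and aspartate transporter EAAT1 (GLAST), read 8.71, 8.69 and 7.84 on mock arrays 4, 5 and 6 and 10.59, 10.58 and 10.02 on those labelled WTAP. Array 6 was the lowest of both groups and the groups did not overlap. SLC1A3 rose by 1.99 with a standard error of 0.26, a 3.96-fold change (limma adjusted p = 0.00203). SLC38A10, of the family of neutral amino acid carriers, read 9.25, 9.21 and 8.99 in mock and 10.17, 10.16 and 10.05 in the other cells. It rose by 0.98 ± 0.12 (SE, adjusted p = 0.0013), and its second probe rose by 0.85.

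SLC1A5 (ASCT2), which takes up glutamine and other neutral amino acids, was lower, at 10.51, 10.56 and 10.65 in mock cells against 9.99, 9.95 and 10.24. It fell by 0.51 ± 0.12 (SE, limma adjusted p = 0.0198), a call lost without mock array 5 or 6 or WTAP array 4 or 5 (adjusted p up to 0.0712, over 16 alternatives 0.00385 to 0.0712). SLC7A2, a carrier of arginine and lysine, fell by 0.42 ± 0.11 (SE, adjusted p = 0.0292), and this call was lost without mock array 5 or 6 or any array labelled WTAP (up to 0.0848). The other members of the fuel and amino acid set did not pass. Of its 11 tested genes 0 rose and 1 fell, 9.09% against 20.4% of all genes, a difference that was not tested. SLC3A2 is the heavy chain (4F2hc) that carries light chains such as SLC7A5 (LAT1) to the cell surface. SLC3A2 read 12.10, 12.29 and 12.72 in mock cells and 11.98, 11.77 and 12.29 in the others, and the groups overlapped. Its log2 fold change was -0.36 (fold 95% interval 0.573 to 1.06, adjusted p = 0.222), with -0.17 on another probe, while the remaining one fell by 0.53 (adjusted p = 0.0349 over all probes). For SLC7A5 the log2 fold change was 0.36 (interval of the fold 0.965 to 1.71, adjusted p = 0.194). SLC7A1, which like SLC7A2 carries arginine and lysine, had 0.33 with groups that did not overlap (adjusted p = 0.0779, over the alternatives 0.0288 to 0.379). SLC38A1 and SLC38A2, glutamine carriers, had -0.34 (adjusted p = 0.125) and -0.51 (adjusted p = 0.23). On WTAP array 6, SLC38A2 stood at 9.98, while the other arrays of that group read 10.97 and 11.11. SLC7A6, SLC7A8 and SLC38A5, further amino acid carriers of the set, had -0.13, -0.32 and -0.10 (adjusted p = 0.732, 0.446 and 0.751).

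Sugar carriers showed 3 rises and 1 fall among 18 genes, 22.2% against 20.4% of all genes, with a median of 0.08. SLC2A1 (GLUT1), the general glucose carrier of growing cells, read 12.70, 12.59 and 12.70 in mock cells and 12.76, 12.81 and 12.70 in the others. The 95% interval of its fold was 0.907 to 1.26 (limma adjusted p = 0.562). SLC2A3 (GLUT3) had a log2 fold change of -0.47 (adjusted p = 0.303), with 9.33, 9.25 and 8.11 on the arrays labelled WTAP. SLC2A14 is a near-identical copy of it, and the probe may read both. SLC2A6 (GLUT6), a hexose carrier of internal membranes, read 10.26, 10.18 and 10.02 in mock cells and 9.17, 9.27 and 9.10 in the others. It fell by 0.98 ± 0.11 (SE, adjusted p = 0.00125). SLC2A5 (GLUT5), the fructose carrier, was dim, at 6.10, 5.99 and 6.40 against 7.18, 6.80 and 6.96, and rose by 0.81 ± 0.15 (SE, adjusted p = 0.00794). SLC5A3, which takes up myo-inositol, rose by 0.68, with detection on 2 mock arrays (adjusted p = 0.0126, and 0.0519 without WTAP array 4). SLC45A3, known as prostein, rose by 0.54, a call lost without mock array 5 or WTAP array 4 (adjusted p = 0.0609 and 0.0602). It lies on chromosome 1 among genes with a median change of 0.36, and after that median was subtracted its adjusted p was 0.368 (limma).

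Of 8 carboxylate genes 3 rose and 1, SLC13A3, was lower but had to differ, and of 7 for fatty acids and acetyl-CoA 3 rose and 1 fell, where 20.4% of all genes changed. These classes are small, and their shares were not tested. SLC16A5 (MCT6), of the monocarboxylate family, read 8.13, 8.01 and 7.64 in mock cells and 9.03, 9.36 and 9.11 in the others. This was a 2.36-fold rise (log2 fold change 1.24 ± 0.16, SE, limma adjusted p = 0.00184). SLC27A2 (FATP2), which takes up long-chain and activates very-long-chain fatty acids, read 7.43, 7.40 and 6.73 against 8.77, 8.72 and 8.19. It rose 2.59-fold (95% interval 1.80 to 3.71, adjusted p = 0.00545), and array 6 was again the lowest of both groups. SLC27A3, a relative of SLC27A2, rose by 0.51 (adjusted p = 0.0102). The call was lost once the median of its chromosome 1 neighbours, 0.21, was subtracted (0.0818). SLC33A1, which brings acetyl-CoA into the endoplasmic reticulum, fell by 0.45, and SLC33A2, formerly MFSD3, rose by 0.73 ± 0.11 (SE, adjusted p = 0.00385). The chromosome 8 neighbours of SLC33A2 had a median of 0.23. After its subtraction the log2 fold change of SLC33A2 was 0.51 (adjusted p = 0.0214). The fall of SLC33A1, at an adjusted p of 0.0395, did not hold without any of the mock arrays or WTAP array 5 or 6 (up to 0.113), and when dim probes stayed in (0.0581, limma).

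SLC13A3 (NaDC3), the sodium-coupled carrier of succinate and other dicarboxylates, was dim in mock cells and below detection in the others. It read 6.46, 6.64 and 6.77 in mock cells and 5.09, 4.98 and 5.04 on the arrays labelled WTAP, on none of which it was detected. The fold is therefore a bound, at least 1.53-fold lower, and since the gene entered through the mock group alone no test is read from it. For such genes the mean of the group that detected the gene was set against the lowest level among detected probes on the arrays of the other group, or the gene's own level where higher. SLC16A14, an orphan of the monocarboxylate family, rose by 0.48 (adjusted p = 0.0279) and SLC5A12, a sodium-coupled lactate carrier, by 0.69 (adjusted p = 0.046). The SLC16A14 call was lost without mock array 4 or 5 or WTAP array 4 or 6 (up to 0.0805), without background correction (0.0811), in the authors' processed table (0.0884) and with a trended, robust variance (0.0774). The SLC5A12 call was lost without any of the mock arrays, without WTAP array 4 or 6 (up to 0.131), with the array number as a block (0.058), without background correction (0.0556), in the authors' processed table (0.0618) and when dim probes stayed in (0.0735). Its second probe, detected on 3 arrays, had a log2 fold change of -0.32, and the mean of both probes did not pass (adjusted p = 0.383, limma).

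**Figure D2:**
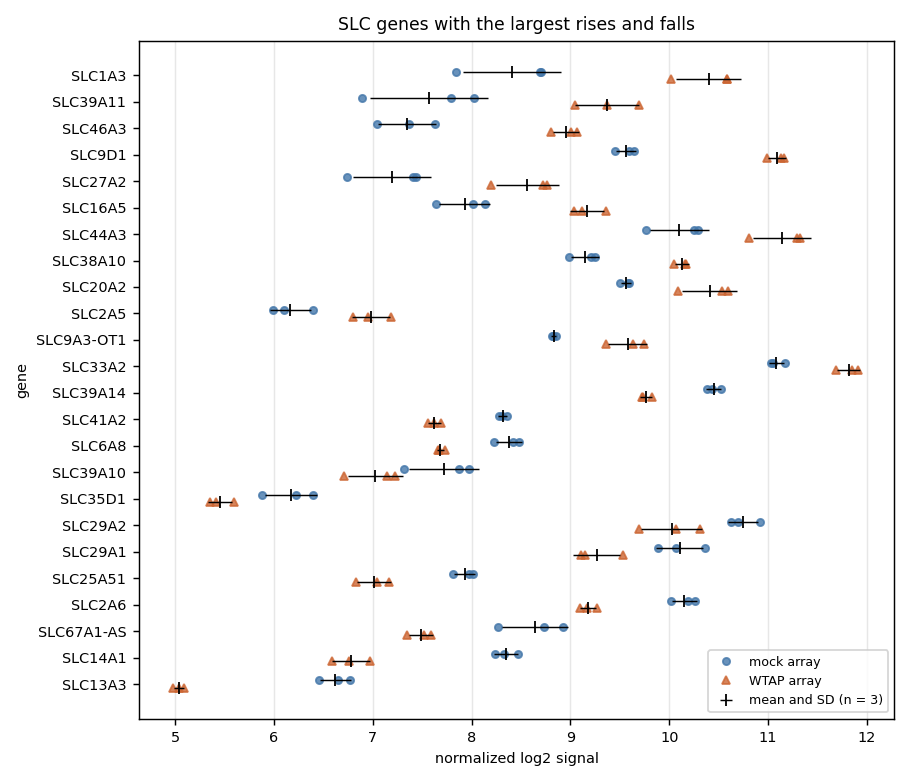
Normalized log2 signal (horizontal axis) on each array, for the 12 SLC genes that rose most and the 12 that fell most, with circles for mock, triangles for the arrays labelled WTAP, and black ticks and bars for the mean and SD of 3 arrays. The genes run from SLC1A3, with a log2 fold change of 1.99, to SLC13A3. SLC13A3 and SLC35D1 were detected on no array labelled WTAP and entered through the mock group alone. Groups that overlap were left out by the rule for naming genes.

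Among inorganic ion carriers 6 rose and 5 fell of 22 tested, where 20.4% of all genes changed, and the median was -0.18. Of the 5, SLC34A1 entered through the mock group alone and had to differ. The sodium-proton exchangers of family 9 set cell and organelle pH. Of 5 transporters tested 4 rose and 0 fell, and the calls of 2 of the 4, SLC9A4 and SLC9A5, depended on single arrays and on the background correction. SLC9D1, formerly TMCO3 and a putative member of this group, read 9.64, 9.59 and 9.45 in mock cells and 11.13, 11.16 and 10.99 in the others. It rose 2.89-fold (log2 fold change 1.53 ± 0.11, SE, limma adjusted p = 0.000209). SLC9A8 (NHE8), an exchanger of the Golgi and the apical membrane, read 7.56, 8.04 and 7.80 against 8.42, 8.69 and 8.43, and rose by 0.71 ± 0.15 (SE, adjusted p = 0.0135). The plasma membrane exchangers SLC9A4 and SLC9A5 rose by 0.51 and 0.54, both from dim levels of 5.92 to 6.77. For SLC9A4 the call, at an adjusted p of 0.0252, did not hold without mock array 4 or 6 or any array labelled WTAP (up to 0.0768) and without background correction (0.112). For SLC9A5 the call, at an adjusted p of 0.0404, did not hold without mock array 4 or 5 or any array labelled WTAP (up to 0.123), without background correction (0.08), when dim probes stayed in (0.0623) and with the array number as a block (0.0505, limma). SLC9A2 did not pass, with -0.18 (adjusted p = 0.374). The calls of SLC9A4 and SLC9A5 were also lost in the authors' processed table (0.128 and 0.088) and with a trended, robust variance (0.0915 and 0.0684).

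Of the phosphate carriers of family 20, SLC20A2 rose, and SLC20A1 did not pass in the reported fit but did in some alternatives. SLC20A2 (PiT2) read 9.59, 9.59 and 9.50 in mock cells and 10.60, 10.09 and 10.54 in the others, and rose by 0.85 ± 0.15 (SE, limma adjusted p = 0.00694). It lies on chromosome 8 among genes with a median change of 0.31. After that median was subtracted its log2 fold change was 0.54 (adjusted p = 0.0485). SLC20A1 (PiT1), named after its values were seen, had a log2 fold change of -0.53 with groups that did not overlap (adjusted p = 0.0629, and 0.0385 with the array number as a block). Over 16 alternatives its adjusted p ran from 0.00769 to 0.177 (limma). SLC12A2 (NKCC1), which loads epithelial cells with chloride for secretion, read 9.22, 9.13 and 9.09 against 9.85, 9.63 and 9.62, and rose by 0.56 ± 0.11 (SE, adjusted p = 0.012). Its second probe had 0.59 (adjusted p = 0.0744 over all probes). SLC4A7, a sodium-bicarbonate carrier, and SLC4A11, a relative that carries protons and ammonia rather than bicarbonate, fell by 0.52 and 0.64, the mitochondrial sodium-calcium exchanger SLC8B1 fell by 0.61, and the sulfate carrier SLC26A2 fell by 0.49. SLC34A1, a phosphate carrier best known from kidney, was detected on no array labelled WTAP and was lower by a bound of at least 1.15-fold, with no test read from it, as for SLC13A3.

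The calls of SLC9D1, SLC20A2, SLC9A8 and SLC12A2 held without any 1 array. Those of SLC4A7, SLC4A11, SLC8B1 and SLC26A2 were each lost without at least 1 array. For SLC4A11 the call, at an adjusted p of 0.0301, did not hold without mock array 4 or 6 or WTAP array 5 or 6 (up to 0.0882). The SLC8B1 call (0.0187) was lost without mock array 6 or WTAP array 5 (0.0591 and 0.0541). The SLC4A7 call (0.0467) was lost without any of the mock arrays, without WTAP array 4 or 5 (up to 0.138), with the array number as a block (0.0713), when dim probes stayed in (0.0719) and after subtraction of neighbours (0.0515). The SLC26A2 call (0.0444) was lost without mock array 5 or 6 or WTAP array 4 or 5 (up to 0.123) and with the block (0.0543), and in 5 further settings (0.0647 to 0.0845, limma).

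Metal carriers split within families. Of 25 tested, 4 rose and 3 fell, 28% against 20.4% of all genes, with a median of -0.09. Family 39 (ZIP) brings zinc and other metals into the cytosol, and family 30 (ZnT) moves zinc out of it. SLC39A11 (ZIP11) read 7.79, 8.02 and 6.89 on mock arrays and 9.69, 9.37 and 9.05 on those labelled WTAP. It rose by 1.80 ± 0.29 (SE), or 3.48-fold with a 95% interval of 2.19 to 5.53 (limma adjusted p = 0.005). SLC39A14 (ZIP14), a zinc, iron and manganese carrier induced by inflammation in liver, read 10.38, 10.53 and 10.44 against 9.83, 9.73 and 9.73. It fell by 0.69 ± 0.10 (SE, adjusted p = 0.00375), and array values lay close within each group. SLC39A10 (ZIP10) also fell by 0.69, from 7.98, 7.87 and 7.31 to 6.71, 7.22 and 7.14. At an adjusted p of 0.0478, this call did not hold without mock array 4 or 5 or any array labelled WTAP (up to 0.142), when dim probes stayed in (0.0771), with the array number as a block (0.0649) and after subtraction of neighbours (0.0522).

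SLC39A1 (ZIP1) rose by 0.59, SLC30A7 (ZnT7), which loads zinc into the Golgi, by 0.44, and the magnesium carrier SLC41A1 by 0.65. These 3 genes lie on chromosome 1, beside genes with median changes of 0.22, 0.12 and 0.34. After subtraction of those medians none of the 3 passed (adjusted p = 0.0902, 0.0935 and 0.115, against 0.0138, 0.0274 and 0.00742 before, limma). The SLC39A1 call was also lost without WTAP array 4 (0.0549), and that of SLC30A7 without any of the mock arrays or WTAP array 4 or 6 (up to 0.0774). SLC41A2, the relative of SLC41A1, went the other way, from 8.28, 8.36 and 8.30 to 7.56, 7.62 and 7.69. It fell by 0.69 ± 0.10 (SE, adjusted p = 0.00339). SLC30A1, the zinc exporter of the plasma membrane, named after its values were seen, had 0.21 (adjusted p = 0.311).

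**Figure D3:**
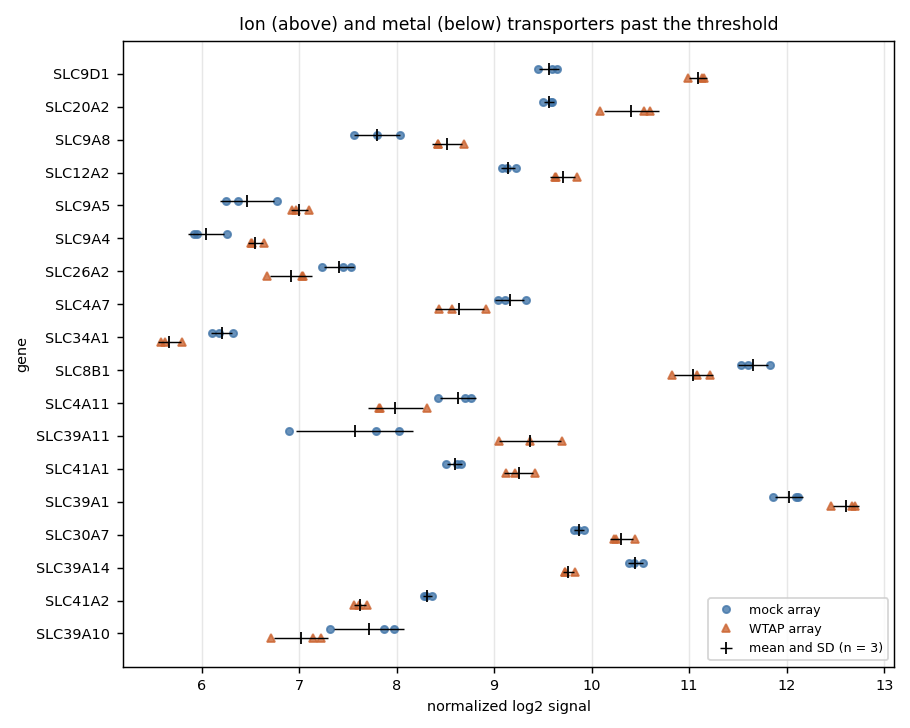
Normalized log2 signal (horizontal axis) of the 11 ion and 7 metal transporters past the threshold on each array, with ion carriers from SLC9D1 to SLC4A11 above and metal carriers from SLC39A11 to SLC39A10 below. Circles are mock arrays, triangles arrays labelled WTAP, and ticks with bars the mean and SD of 3 arrays. The triangles of SLC9D1 lie at 10.99 to 11.16, above all its circles. SLC34A1, among the ion carriers, was detected on no array labelled WTAP and had to differ.

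Of 4 nucleoside carriers tested 0 rose and 2 fell, where 20.4% of all genes changed. The share of so small a class was not tested. Both that fell are plasma membrane carriers of family 29. They let nucleosides and nucleoside drugs such as gemcitabine cross the membrane in either direction. SLC29A1 (ENT1) read 9.89, 10.07 and 10.36 in mock cells and 9.15, 9.11 and 9.54 in the others, and fell by 0.84 ± 0.17 (SE, limma adjusted p = 0.0106). Its second probe fell by 0.93. SLC29A2 (ENT2) read 10.92, 10.70 and 10.62 against 10.31, 10.07 and 9.69, and fell by 0.72 ± 0.17 (SE, adjusted p = 0.0212). The SLC29A2 call was lost without mock array 4 or 5 or WTAP array 5 (up to 0.0666, over 16 alternatives 0.00223 to 0.0666). SLC29A3, a lysosomal relative named after its values were seen, had 0.46 (adjusted p = 0.272).

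Vitamin and choline carriers had 3 higher and 0 lower of 13, 23.1% against 20.4% of all genes, and a median of 0.29. In family 44, the choline transporter-like proteins, 2 of 4 rose and 0 fell. SLC44A3 read 10.25, 10.29 and 9.76 in mock cells and 11.33, 11.29 and 10.81 in the others, and rose 2.06-fold (limma adjusted p = 0.00847). Array 6 was the lowest of each group, as for SLC1A3 and SLC27A2. SLC44A1 (CTL1), a choline carrier, rose by 0.35 (adjusted p = 0.0464), with 0.44 on its second probe. That call was lost without any 1 of the 6 arrays (up to 0.12), with the array number as a block (0.0536), with median scaling (0.0799), when dim probes stayed in (0.0633) and after subtraction of neighbours (0.0789). SLC44A2, named after its values were seen, had 0.65 (adjusted p = 0.0506, 0.0103 with the block and 0.0498 after subtraction of neighbours). SLC52A3, a riboflavin carrier, rose by 0.42 (adjusted p = 0.0418), a call likewise lost without any 1 array (up to 0.115), with median scaling (0.0515), when dim probes stayed in (0.0599) and after subtraction of neighbours (0.237).

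Mitochondrial carriers of family 25 had 2 higher and 5 lower of 31, 22.6% against 20.4% of all genes, with a median of -0.04. SLC25A51, which brings NAD into mitochondria, read 7.81, 7.97 and 8.01 in mock cells and 7.04, 7.16 and 6.83 in the others. It fell by 0.92 ± 0.13 (SE, limma adjusted p = 0.00249). SLC25A22, a glutamate carrier, fell by 0.61 (adjusted p = 0.0171, and 0.0572 without WTAP array 5). SLC25A28 (mitoferrin-2), an iron carrier on chromosome 10, fell by 0.58 (adjusted p = 0.00865). The genes around SLC25A28 had a median change of -0.45, and after its subtraction the adjusted p was 0.468. SLC25A42, a coenzyme A carrier, rose by 0.55, at an adjusted p of 0.0466 that did not hold without any of the mock arrays or WTAP array 4 or 5 (up to 0.136), with median scaling (0.0598) and when dim probes stayed in (0.0724). The aspartate-glutamate carrier SLC25A13, the outer membrane protein SLC25A46 and the uncoupling-type carrier SLC25A14 had log2 fold changes of -0.52, -0.40 and 0.36 (limma adjusted p = 0.0219, 0.0479 and 0.0396). All 3 calls were lost without mock array 4 or 5 or WTAP array 5 (up to 0.0685, 0.134 and 0.124), those of SLC25A46 and SLC25A14 also without mock array 6 or WTAP array 4 and after subtraction of neighbours (0.112 and 0.058). When dim probes stayed in, the adjusted p was 0.0689 for SLC25A46 and 0.053 for SLC25A14, and median scaling gave 0.0647 for SLC25A14.

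Nucleotide sugar carriers of family 35, which feed glycosylation in the Golgi and endoplasmic reticulum, had 1 higher and 2 lower of 24. This was 12.5%, against 20.4% of all genes, a difference that was not tested, and 1 of the lower ones, SLC35D1, had to differ. SLC35B4, a carrier of UDP-xylose and UDP-N-acetylglucosamine, read 6.55, 6.18 and 6.41 in mock cells and 7.04, 6.93 and 7.24 in the others, and rose by 0.69 ± 0.14 (SE, limma adjusted p = 0.0109). SLC35C1, the GDP-fucose carrier, fell by 0.39 (adjusted p = 0.0288), a call lost without any 1 of the 6 arrays (up to 0.0786) and after subtraction of neighbours (0.0841). SLC35D1, a UDP-glucuronic acid carrier, was below detection on every array labelled WTAP and lower by at least 1.12-fold, with no test read from it.

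Of 11 bile salt and organic ion carriers 1 rose and 1 fell, 18.2% against 20.4% of all genes, while 27 of the 38 on the array were not detected on 3 arrays. SLC51A, a subunit of the exporter that passes bile salts to the blood side of epithelia, read 5.97, 5.76 and 5.58 in mock cells, with detection on 1 array, and 6.54, 6.38 and 6.20 in the others. It rose by 0.60 ± 0.14 (SE, limma adjusted p = 0.0212). The SLC51A call was lost without mock array 5 or 6 or WTAP array 4 or 5 (up to 0.0771), without background correction (0.066), in the authors' processed table (0.0747) and with a trended, robust variance (0.0592). Its partner SLC51B and SLC10A2, the bile salt uptake carrier of cholangiocytes, were detected on no array. SLC10A7 fell by 0.47 (adjusted p = 0.0176) and lies on chromosome 4 beside genes with a median of -0.34, after whose subtraction the adjusted p was 0.437. That call was also lost without mock array 4 or 5 or WTAP array 5 (up to 0.058). Its second probe had -0.52 (adjusted p = 0.0582).

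Of the 13 bile duct transport genes analysed, 6 were detected on at least 3 arrays, 2 rose (SLC12A2 and SLC51A) and 0 fell. That was 33.3% of the 6, against 20.4% of all genes, a difference that was not tested. SLC51A was detected on 1 mock array and on 3 labelled WTAP, so it reached membership only with the group in which it was high. Its part in this count carries little weight, and its call was lost in the settings given above. SLC4A2 (AE2), which exchanges chloride for bicarbonate in bile ducts, read 9.10, 9.41 and 9.24 in mock cells and 9.05, 9.10 and 9.01 in the others. The 95% interval of its fold was 0.726 to 1.05 (limma adjusted p = 0.284). SLC26A6, another anion exchanger, had a log2 fold change of -0.19 (adjusted p = 0.495) and SLC5A1 (SGLT1), the sodium-coupled glucose carrier, had -0.40 (adjusted p = 0.475). SLC5A1 ranged from 5.69 to 7.33 over the mock arrays, more than the distance between the group means.

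**Figure D4:**
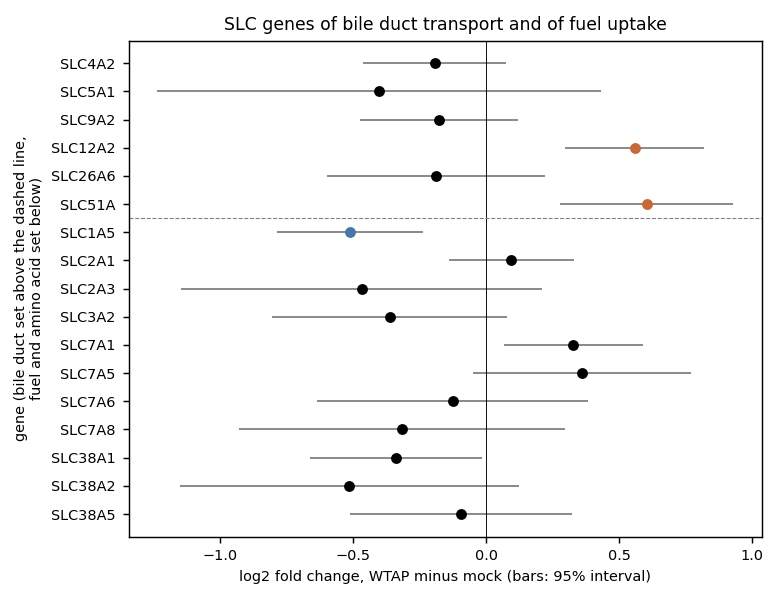
Log2 fold change (horizontal axis, arrays labelled WTAP minus mock) with its 95% interval for the 6 tested genes of bile duct transport, above the dashed line, and the 11 of fuel and amino acid uptake, below it. Coloured points passed an adjusted p of 0.05: SLC12A2 at 0.56 and SLC51A at 0.60 were higher and SLC1A5 at -0.51 was lower, while black points did not pass.

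Further changes lay outside these groups. SLC14A1, the urea carrier UT-B that bears the Kidd blood group, had the largest fall among genes detected in both groups. It read 8.47, 8.23 and 8.33 in mock cells and 6.59, 6.76 and 6.97 in the others, and fell by 1.57 ± 0.13 (SE), a 2.97-fold change (limma adjusted p = 0.000409). SLC46A3, a lysosomal carrier, read 7.04, 7.36 and 7.63 against 9.06, 9.0 and 8.80, and rose by 1.61 ± 0.16 (SE), or 3.05-fold (adjusted p = 0.000791). SLC6A8, the creatine carrier, read 8.42, 8.48 and 8.23 against 7.66, 7.73 and 7.67, and fell by 0.69 ± 0.11 (SE, adjusted p = 0.00493). SLC18B1, a vesicular polyamine carrier, fell by 0.60 (adjusted p = 0.0176), a call lost without mock array 4 or WTAP array 4 or 5 (up to 0.0583).

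The symbol rule also took in 11 genes that are no transporters, such as antisense RNAs, pseudogenes and regulators, of which 1 rose and 1 fell. SLC67A1-AS, an RNA antisense to the transporter gene SLC67A1 (formerly SLC22A18), fell by 1.15 ± 0.17 (SE, limma adjusted p = 0.0037). SLC67A1 itself, named after its values were seen, had 0.36 (adjusted p = 0.18). SLC9A3-OT1, an overlapping RNA of the SLC9A3 locus, rose by 0.75 (adjusted p = 0.00577), while SLC9A3 was detected on 1 array and not tested. Without the 11 genes, 55 of 213 transporters had changed, or 25.8%, against 20.4% of all genes.

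Of 27 partner and related genes outside the symbol rule, 19 were tested, 2 rose and 5 fell, 36.8% against 20.4% of all genes, a difference that was not tested. The sodium pump subunits ATP1B1 and ATP1B3, part of the pump that makes the gradient many solute carriers use, fell by 0.39 and 0.52 (limma adjusted p = 0.0295 and 0.0202). The scaffold NHERF2, which binds apical transporters, fell by 0.93 (adjusted p = 0.0105), and the sideroflexins SFXN3 and SFXN4, mitochondrial carriers on chromosome 10, fell by 0.57 and 0.82. XPR1, a phosphate exporter, rose by 0.66 and SLCO3A1, an organic anion carrier, by 0.69 (adjusted p = 0.00775 and 0.00671). On chromosome 10, 193 of the 413 genes outside the SLC list fell. XPR1 and SLCO3A1 lie on chromosomes 1 and 15, where 212 such genes rose and 62 fell, and 91 rose and 24 fell. Results without 1 array or after subtraction of neighbours are not given for the partner genes, so their calls are not shown to be firmer than those of SLC genes.

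Several of the changed SLC genes lay in chromosomes whose other genes were shifted too. On chromosome 13, 2 of 4 SLC genes rose (SLC46A3 and SLC9D1) and 0 fell, and of the 196 other genes there 101 rose and 4 fell, with a median of 0.52. The genes around SLC46A3 and SLC9D1 had medians of 0.49 and 0.59, and both passed after these were subtracted (limma adjusted p = 0.00425 and 0.00166), with log2 fold changes of 1.12 and 0.94. On chromosome 1, 7 of 23 SLC genes rose and 1 fell, against 212 and 62 of 1169 other genes. After subtraction SLC27A3, SLC30A7, SLC39A1, SLC41A1 and SLC45A3 there lost their calls (limma adjusted p = 0.0818 to 0.368). On chromosome 17, 3 of 13 rose (SLC39A11, SLC16A5 and SLC38A10) and 0 fell, against 125 and 23 of 702. After subtraction, SLC39A11 had 1.59, SLC16A5 1.0 and SLC38A10 0.75, and all 3 passed (adjusted p = 0.0106, 0.00595 and 0.00531). On chromosome 8, 2 of 9 SLC genes rose (SLC20A2 and SLC33A2) and 2 fell, against 106 and 16 of 403 others. SLC20A2 and SLC33A2 passed after subtraction, at 0.54 and 0.51 (limma adjusted p = 0.0485 and 0.0214). On chromosome 10, 1 of 5 SLC genes fell, against 193 of 413 others. That gene, SLC25A28, lost its call after subtraction (limma adjusted p = 0.468). For the whole list, 42 of the 57 calls held after the subtraction of neighbouring genes and 6 genes were called only then. That gave 48 SLC calls, while the calls over all genes went from 2366 to 1643. SLC1A3, SLC14A1, SLC2A6, SLC6A8 and SLC25A51 had neighbour medians between -0.10 and 0.21 and kept their calls.

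**Figure D5:**
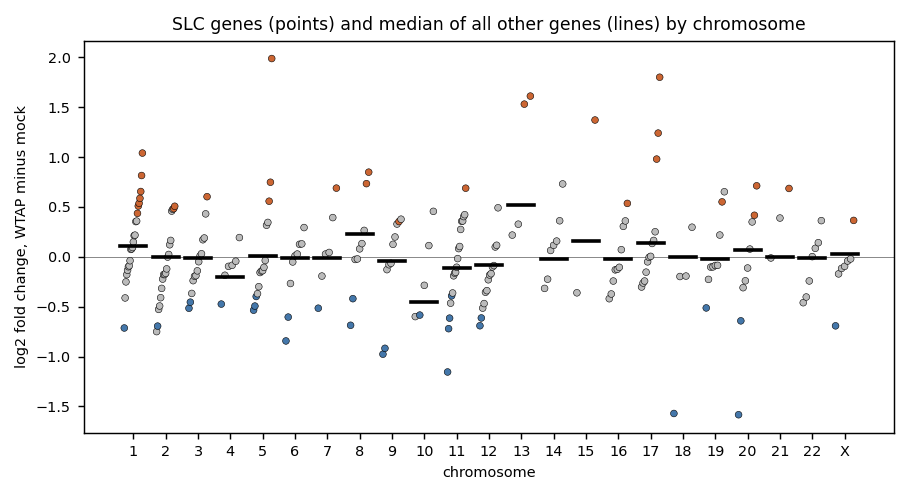
Log2 fold change (vertical axis, arrays labelled WTAP minus mock) of each SLC gene by chromosome (horizontal axis), as points ordered by value within a chromosome, with black lines for the median of all other tested genes there. Orange and blue points passed an adjusted p of 0.05 and grey ones did not. The line stands at 0.52 on chromosome 13 and at -0.45 on chromosome 10, while SLC1A3, at 1.99 on chromosome 5, stands over a line near 0.

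Changed genes had 7 further detected probes. Of these 6 had the same sign, 4 of these passed over all probes in the same direction and 0 passed in the opposite one, with SLC5A12 the exception in sign. Among genes that did not pass through their brightest probe, 2 had a further probe that did. These were SLC3A2, given above, and SLC22A23, of the organic ion family and named after its values were seen. The tested SLC22A23 probe had 0.13, while its dimmer probe, detected on 2 mock arrays, read 6.37, 6.06 and 5.80 in mock and 7.34, 7.63 and 7.04 in the other cells and rose by 1.26 (limma adjusted p = 0.00428 over all probes).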

How the data were processed

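Per the file headers, the authors deposited linear probe intensity before any normalization, beside a detection p-value for each probe on each array. They also deposited a processed intensity table, whose arrays share 1 distribution by its values. The software was BeadStudio 3.3, per the submitters' processing notes, and how it treated background is not stated. The unnormalized table was processed by neqc (limma 3.58.1, R 4.3.3: normexp, offset 16, quantile, log2). Probes with a detection p under 0.05 on at least 3 arrays entered, and each gene was tested through its brightest probe with lmFit and eBayes, adjusted by Benjamini-Hochberg over all 11586 genes at 0.05. The offset understates changes of dim genes. The fit was tested on simulated data.

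Gene names came from the platform annotation, updated by gene identifier to the RefSeq table of GRCh38.p14, which changed 0 SLC symbols. Substrate classes followed the family number, with exceptions for single genes. The members, classes and lists were chosen with earlier results of these data known. The text names the 12 largest rises and 12 largest falls with groups that did not overlap, up to 3 further changed genes a class, and detected members of the bile duct and fuel sets. Changed genes beyond these were named after their values were seen. For neighbouring genes, the median log2 fold change of the 50 nearest tested genes was subtracted. Arrays of 1 number deviated together (correlations across genes of 0.12, 0.21 and 0.23, where unlike numbers gave -0.20 to 0.02), so the numbers of the titles were taken to pair the arrays. The fit without this block is the one reported, so its p-values leave the pairing out. With the block, 50 of the 57 calls held and 9 other SLC genes passed.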

Additional observations from a re-analysis of the deposited data

How the results depend on the processing

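With 1 array left out, the number of changed SLC genes ranged from 33 to 57, of higher ones from 17 to 31 and of lower ones from 12 to 26. Over all genes the same settings gave 1345 to 2245, with 648 to 1115 higher and 657 to 1130 lower. Of the 57 genes, 54 could be tested in all 6 of these fits, and 26 passed in each. SLC13A3, SLC34A1 and SLC35D1 could not be tested without a mock array. The replicate block gave 59 changed SLC genes, 50 of them among the 57, and 2584 changed genes over all genes. The 9 others were SLC15A3, SLC19A3, SLC20A1, SLC25A40, SLC25A44, SLC44A2, SLC66A3, SLC6A10P and SLC7A7 (adjusted p = 0.0103 to 0.0492). Beside the losses named above, the block ended no call of a gene named with values except SLC25A14 (adjusted p = 0.0532). The count was 63 without background correction, at an offset of 50, with a trended, robust variance and in the processed table. Over all 11586 genes these settings called 2968, 2700, 2998 and 2993, against 2366 in the reported fit. It was 54 with median scaling (2332 over all genes), 60 with the mean of probes (2412) and 48 with neighbours subtracted (1643). For genes detected on all arrays it was 58, with 2410 of 10126 over all genes. When dim probes stayed in it was 49, with 1979 of 19432 over all genes, as that fit also tested genes below detection. No direction of a changed gene turned in the 12 to 16 alternatives in which each could be tested. The platform's own symbols gave the same 57. Settings chosen after seeing the data gave 55 for transporters alone, 51 for members detected on all arrays and 54 without the 3 genes that entered through 1 group alone. SLC9A4 and SLC51A lay near the detection limit and lost their calls without background correction. Signal over background limits what can be said of such dim genes.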
